A study of Mus musculus with 14 samples.

Results

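The HoxD cluster and its neighbour Evx2 form an array of 10 genes on mouse chromosome 2, and all 10 were chosen by name, out of 24454 genes in the count table. In chromosomal order they are Evx2, Hoxd13, Hoxd12, Hoxd11, Hoxd10, Hoxd9, Hoxd8, Hoxd4, Hoxd3 and Hoxd1 (mm10, with Evx2 starting at 74652989 and Hoxd1 ending at 74765142). Evx2 lies on the minus strand and the 9 Hoxd genes on the plus strand. All 10 were among the 15125 genes tested; Evx2 passed the filter on low counts only through S9-JAG1+ LMPs and chondroblasts, the populations in which its level was high.

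The counts came from cells sorted from pooled forelimb buds of mouse embryos that carry an EGFP reporter in the Sox9 locus. Limb bud mesenchymal progenitors (LMPs) lacking SOX9 were divided into S9-JAG1+ and S9-Pαhi cells, the latter with high surface PDGFRα and sorted without JAG1 or SCA-1, and osteo-chondrogenic progenitors (OCPs) were SOX9-positive and PDGFRα-high (S9+Pαhi), with 3 libraries each at embryonic day E10.5. Chondroblasts were taken by the SOX9 and PDGFRα gate of the OCPs, but at E11.5 (3 libraries), so that cell population and stage cannot be told apart in any comparison with them. S9-SCA-1+ cells had 2 libraries at E10.5. All gates removed blood, endothelial and epithelial cells by surface antigens. Libraries held 20316583 to 29162751 counts, and Sox9, Jag1 and Ly6a were highest where the labels place them. Sox9 averaged 437 and 536 CPM (counts scaled to a common library size) in OCPs and chondroblasts against 11.0 to 62.3 elsewhere. Jag1 was highest in S9-JAG1+ LMPs (296 CPM), with 119 CPM in chondroblasts and at most 19.7 in the other populations. Ly6a, which encodes SCA-1, averaged 3.23 CPM in the S9-SCA-1+ libraries, with population means elsewhere of 0.248 CPM or less. Pdgfra, which encodes PDGFRα, averaged 864 CPM in chondroblasts, 719 in OCPs, 443 in S9-Pαhi LMPs, 247 in S9-JAG1+ LMPs and 34.4 in S9-SCA-1+ cells. Genes used to mark myogenic cells summed to 1501 and 1504 CPM in the S9-SCA-1+ libraries and to at most 11.4 CPM in any other library. Tbx5, a forelimb gene, was at 181 CPM or more in every library other than those of S9-SCA-1+ cells.

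Hox genes encode homeodomain transcription factors that give positional identity along the body and limb axes. Their order on the chromosome parallels the order and place in which they are activated, a property called collinearity. In limb buds the HoxD genes are transcribed in an early phase, which serves the proximal limb, and a later phase in the presumptive digits, in which Hoxd13 and its neighbours are controlled by enhancers on the side of the cluster where Evx2 lies. Evx2 encodes a homeodomain protein of the even-skipped family and shares this control in the distal limb.

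The 250 bases upstream of the RefSeq start were found for all 10 genes (11 promoters, since Hoxd11 has 2; RefSeq, GRCm38.p6). The upstream sequences of Evx2, Hoxd13 and Hoxd4 are shown because these 3 hold the letters TATAAA on either strand. They lie at chr2:74659558-74659807 (minus strand), chr2:74667975-74668224 and chr2:74721728-74721977 (both plus strand), and capitals mark TATAAA or TTTATNG on either strand, the second resembling the A/T-rich sites that posterior Hox proteins bind.
Evx2: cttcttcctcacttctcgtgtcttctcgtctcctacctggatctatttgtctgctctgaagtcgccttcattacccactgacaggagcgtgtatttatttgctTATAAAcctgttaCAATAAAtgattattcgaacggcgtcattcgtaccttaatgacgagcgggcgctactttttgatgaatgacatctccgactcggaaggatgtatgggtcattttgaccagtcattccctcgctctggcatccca
Hoxd13: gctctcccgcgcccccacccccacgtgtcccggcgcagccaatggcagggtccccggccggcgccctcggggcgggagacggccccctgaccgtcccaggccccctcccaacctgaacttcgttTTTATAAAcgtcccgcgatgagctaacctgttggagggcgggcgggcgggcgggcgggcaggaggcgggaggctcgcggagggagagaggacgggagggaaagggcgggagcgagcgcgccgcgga
Hoxd4: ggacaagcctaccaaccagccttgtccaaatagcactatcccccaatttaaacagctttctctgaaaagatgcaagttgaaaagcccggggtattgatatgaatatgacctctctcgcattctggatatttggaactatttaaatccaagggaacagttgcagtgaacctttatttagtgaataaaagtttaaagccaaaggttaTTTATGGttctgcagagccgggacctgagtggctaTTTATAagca
TATAAA occurred in 12.4% of the 32851 RefSeq promoters of the same length, and TTTATNG in 9.81%. Among the 11 promoters of the array TTTATNG occurred in 2, those of Evx2 and Hoxd4, and in Hoxd13 the forward and reverse matches to TATAAA overlap in a single run. CCAAT occurred in 7 of the 11 and in 33.8% of all promoters. GC content ran from 40.4% (Hoxd4) to 74.4% (Hoxd13), against a median of 52.4% over all promoters. These matches describe the letters only.

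The level of RNA from the whole array differed between populations, and so did its make-up. Summed per exon kilobase, the 10 genes gave 874 ± 108 CPM per kb in S9-JAG1+ LMPs (SD, n = 3), 428 ± 67.6 in chondroblasts, 331 ± 36.8 in S9-Pαhi LMPs, 250.2 ± 10.55 in OCPs and 54.6 ± 7.91 in S9-SCA-1+ cells (n = 2). Hoxd10 to Hoxd13 made up 89.3% of this sum in S9-JAG1+ LMPs and 77.2% in chondroblasts, but 54.7% in S9-Pαhi LMPs, 48.8% in OCPs and 31.2% in S9-SCA-1+ cells. In bulk samples, fewer expressing cells and less RNA per cell cannot be told apart.

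**Figure D1:**
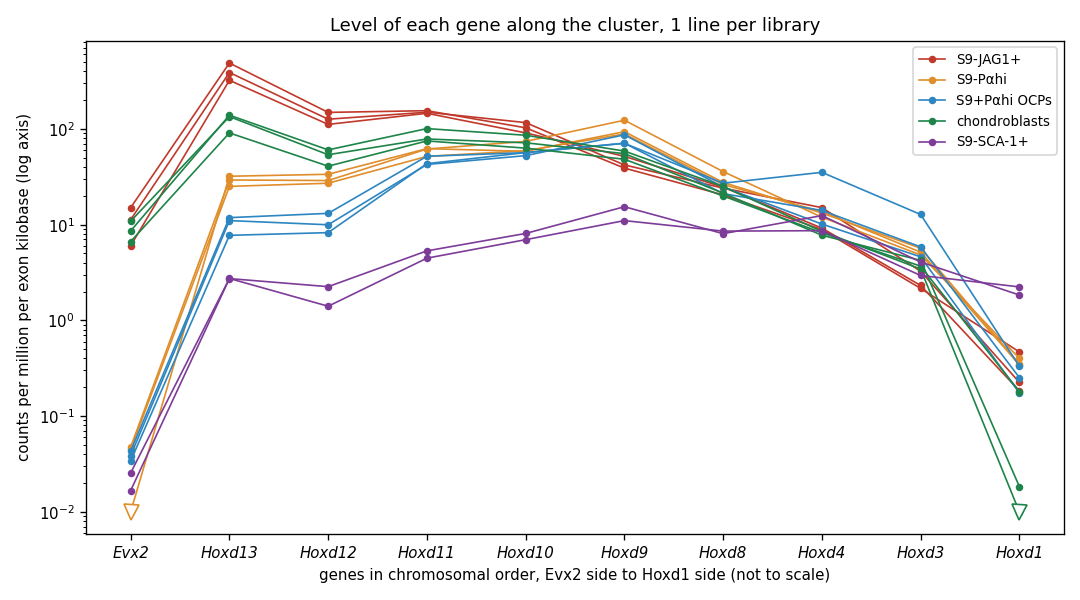
Level of each gene in chromosomal order, in CPM per exon kilobase on a log axis, with a line per library coloured by population; open triangles at the bottom mark libraries with 0 reads. The lines fan out at the Evx2 and Hoxd13 side and run close together at Hoxd4 and Hoxd3.

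Per kilobase, the highest gene was Hoxd13 in S9-JAG1+ LMPs (399.6 ± 83.6 CPM per kb) and in chondroblasts (122 CPM per kb), and Hoxd9 in S9-Pαhi LMPs (102), OCPs (76.2) and S9-SCA-1+ cells (13.2). Hoxd13 took 45.4% of the array's sum in S9-JAG1+ LMPs, 28.2% in chondroblasts, 8.72% in S9-Pαhi LMPs, 5.06% in S9-SCA-1+ cells and 4.11% in OCPs. Hoxd9 took 30.6% in both S9-Pαhi LMPs and OCPs, and 5.18% in S9-JAG1+ LMPs. Without division by length, Hoxd11 had the highest CPM in S9-Pαhi LMPs (247), OCPs (193) and chondroblasts (357). Over all 5 populations, the means spanned 146-fold for Hoxd13, 70.5-fold for Hoxd12 and 30.7-fold for Hoxd11, against 2.43-fold for Hoxd4 and 3.00-fold for Hoxd3.

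**Figure D2:**
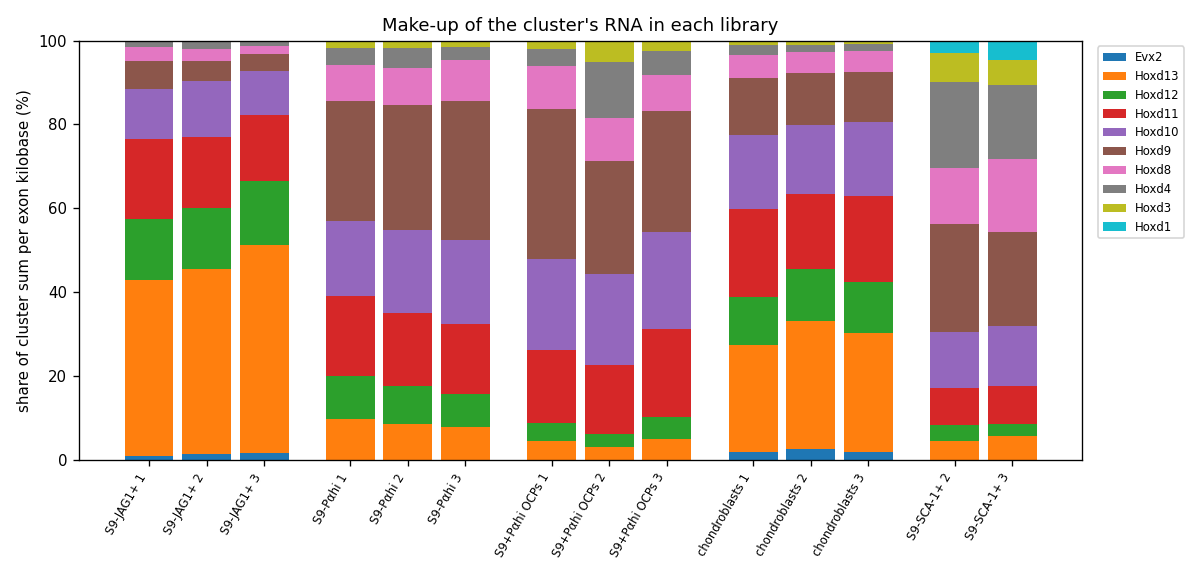
Share of each gene in the summed CPM per exon kilobase of the 10 genes, as a stacked bar per library. Hoxd13 is the largest block in all S9-JAG1+ and chondroblast libraries, and Hoxd9 in all S9-Pαhi, OCP and S9-SCA-1+ libraries.

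Evx2 was expressed in S9-JAG1+ LMPs and chondroblasts and was near the limit of detection in the other populations. The S9-JAG1+ libraries had 25.3, 47.3 and 63.1 CPM and the chondroblast libraries 27.9, 45.6 and 36.0 CPM. The 8 libraries of the other populations held 0 to 5 Evx2 reads each, where 3 reads correspond to 0.101 to 0.149 CPM. The 2 expressing populations overlapped with each other and with no other population. From pooled reads, Evx2 was 362-fold higher in S9-JAG1+ than in S9-Pαhi LMPs (95% counting interval 190 to 792, 3311 against 9 reads) and 223-fold higher in chondroblasts than in OCPs (127 to 432, 3080 against 12 reads); these intervals cover counting error only. S9-JAG1+ LMPs and chondroblasts did not differ beyond their spread in Evx2 (log2 difference chondroblasts minus S9-JAG1+ -0.31 ± 0.27 SE, edgeR adjusted p = 0.335).

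Hoxd13, which encodes the most posterior HoxD protein and is required for digit formation, took a different level in every population. Its libraries had 799, 965 and 1212 CPM in S9-JAG1+ LMPs, 226, 334 and 346 in chondroblasts, 79.6, 62.4 and 72.7 in S9-Pαhi LMPs, 27.4, 19.2 and 29.4 in OCPs, and 6.79 and 6.80 in S9-SCA-1+ cells. No 2 populations overlapped, and each step in this order was called: 3.29-fold from chondroblasts to S9-JAG1+ LMPs (edgeR adjusted p = 3.48e-06), 4.22-fold from S9-Pαhi LMPs to chondroblasts (2.28e-06), 2.82-fold from OCPs to S9-Pαhi LMPs (0.00018) and 3.73-fold from S9-SCA-1+ cells to OCPs (3.56e-05).

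Hoxd12, which acts with Hoxd13 in distal patterning, kept the same order. It had 283, 320 and 377 CPM in S9-JAG1+ LMPs, 103, 136 and 153 in chondroblasts, 85.1, 68.6 and 73.2 in S9-Pαhi LMPs, 25.3, 20.9 and 33.2 in OCPs and 5.70 and 3.56 in S9-SCA-1+ cells. The groups did not overlap, and only the step from S9-Pαhi LMPs to chondroblasts, 1.73-fold, stayed under the fold limit. Per kilobase, Hoxd13 exceeded Hoxd12 by 3.08 ± 0.196-fold in S9-JAG1+ LMPs and 2.34 ± 0.142-fold in chondroblasts, whereas the ratio was 0.965 ± 0.0442 in S9-Pαhi LMPs and 0.982 ± 0.109 in OCPs (SD, n = 3).

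Hoxd11 and Hoxd10, which pattern the forearm and act in both phases, varied less. Hoxd11 libraries had 614, 630 and 653 CPM in S9-JAG1+ LMPs, 315, 331 and 424 in chondroblasts, 218 to 262 in S9-Pαhi LMPs, 179 to 218 in OCPs, and 22.4 and 18.8 in S9-SCA-1+ cells. The top 2 populations stood apart from each other and from the rest, while S9-Pαhi LMPs and OCPs overlapped. Hoxd10 averaged 191 ± 23.6 CPM in S9-JAG1+ LMPs, 136 ± 21.4 in chondroblasts, 118 ± 16.4 in S9-Pαhi LMPs, 102 ± 4.24 in OCPs and 13.9 ± 1.47 in S9-SCA-1+ cells. Some Hoxd10 and Hoxd11 exon bases (5.73% and 10.8%) are also annotated to another transcript, Gm28309, on the same strand.

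Hoxd9 was higher in S9-Pαhi than in S9-JAG1+ LMPs, the reverse of Hoxd11 to Hoxd13. Hoxd9, a gene of the early phase, had 197, 186 and 259 CPM in S9-Pαhi LMPs, 182, 149 and 149 in OCPs, 101, 116 and 123 in chondroblasts, 109, 88.4 and 81.9 in S9-JAG1+ LMPs and 32.3 and 23.2 in S9-SCA-1+ cells. Chondroblasts and S9-JAG1+ LMPs overlapped and the other neighbours in this order did not. Hoxd8 averaged 47.7 to 64.6 CPM in the 4 populations other than S9-SCA-1+ cells, a 1.35-fold range, and 17.9 ± 0.778 CPM in S9-SCA-1+ cells. Its log2 difference between the 2 kinds of LMP was under the fold limit and so not called (edgeR adjusted p = 0.0606). The S9-Pαhi library highest in Hoxd8, Hoxd9 and Hoxd10 also had 38.2 CPM of the hindlimb gene Pitx1, against 2.11 and 2.67 in the other 2. OCP replicate 1 had 29.4 CPM of Pitx1 against 4.14 and 0.0723, and the highest Hoxd9 of the OCPs. Its Hoxd10 was the lowest of the OCPs (97.3 CPM against 104.7 and 104.6), and its Hoxd8 (53.4 CPM) lay between 58.5 and 45.6. S9-JAG1+ replicate 1 had 23.6 CPM of Pitx1 against 2.72 and 3.77. Of the S9-JAG1+ libraries it had the highest Hoxd8 and Hoxd9 and the lowest Hoxd10 to Hoxd13 and Evx2. Its Hoxd10 was 168 CPM against 215 and 190. Other hindlimb genes followed Pitx1 in part. Hoxc10 had 8.48, 1.81 and 0 CPM in OCP replicates 1 to 3 and 0, 0.226 and 7.92 in those of S9-Pαhi LMPs. In S9-JAG1+ replicates 1 to 3 it had 3.90, 0.419 and 4.32 CPM, so replicate 3 was highest. Tbx4 had 45.2, 38.4 and 42.7 CPM in the OCPs, 10.7, 8.88 and 21.5 in S9-Pαhi and 19.7, 14.9 and 15.4 in S9-JAG1+ LMPs. The part of hindlimb cells in these values was not tested.

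Hoxd4 and Hoxd3, at the side of the cluster transcribed first in the embryo, varied less between populations, and a single library stood apart. OCP replicate 2 had 90.1 CPM of Hoxd4 and 37.1 CPM of Hoxd3, against 26.0 and 36.0, and 13.4 and 17.0, in the other 2 OCP libraries. The remaining 11 libraries ranged from 19.8 to 38.6 CPM for Hoxd4 and from 6.26 to 16.5 CPM for Hoxd3. Hoxd3 averaged 7.49 ± 1.73 CPM in S9-JAG1+ and 15.1 ± 1.25 CPM in S9-Pαhi LMPs, without overlap (edgeR adjusted p = 0.0275, under the fold limit). Both genes share annotated exon bases: 53.1% of Hoxd3 and 39.1% of Hoxd4 exon bases also belong to a read-through gene, Gm28230, and 347 bases of each to the antisense Hoxd3os1, and use of strand in the counting was not given, so their separate values are uncertain.

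Hoxd1, the gene at the far end, had 98 and 117 reads in the S9-SCA-1+ libraries (3.43 and 4.17 CPM) and 0 to 22 reads in any other library. S9-SCA-1+ cells overlapped with no other population. From pooled reads the level of Hoxd1 in S9-SCA-1+ cells was 5.63 times that in S9-Pαhi LMPs (95% counting interval 4.10 to 7.87) and 29.1 times that in chondroblasts (15.95 to 59.21). Of the 11 chondroblast reads, 10 came from a single library.

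**Figure D3:**
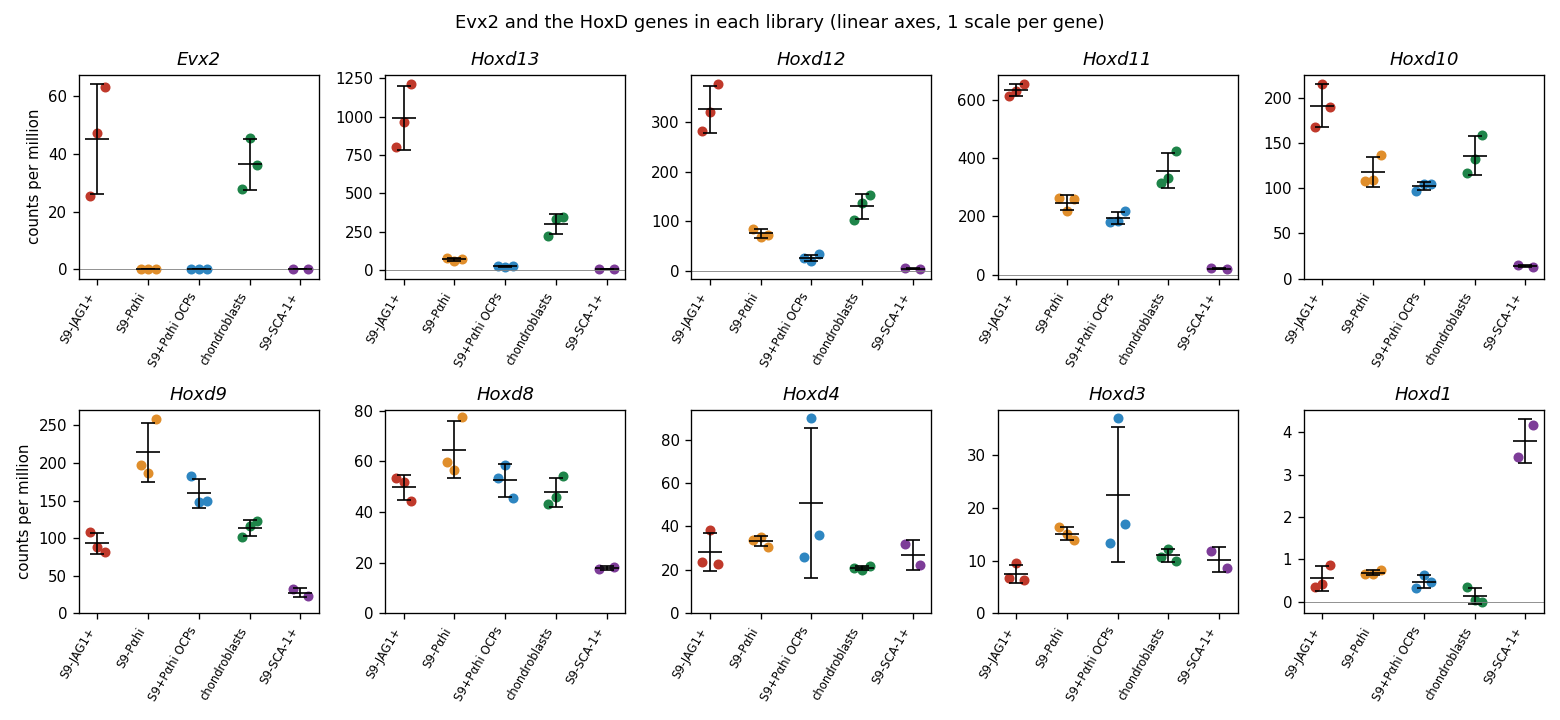
CPM of each gene in each library on linear axes, a panel per gene; points are libraries, and black bars are the mean and SD of each population. Hoxd13 and Hoxd12 fall in the order S9-JAG1+, chondroblasts, S9-Pαhi, OCPs, S9-SCA-1+, Hoxd1 is highest in S9-SCA-1+ cells, and OCP replicate 2 stands above the others for Hoxd4 and Hoxd3.

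To compare the 2 kinds of LMP, a gene was called when its edgeR adjusted p was at most 0.1 and its log2 fold change at least 1.2 in size. In S9-JAG1+ against S9-Pαhi LMPs, 4 of the 10 genes were called higher, where 2.58% of all tested genes were, and 1 was called lower, against 4.42%. The 4 were Evx2, Hoxd13, Hoxd12 and Hoxd11. Evx2 was tested only because it was high in S9-JAG1+ LMPs and chondroblasts. Its calls against the other populations, here and in the comparisons below, follow from that and are no added support. The log2 fold change fell step by step from Evx2 to Hoxd9: 8.43 ± 0.49 (SE) for Evx2, 3.79 ± 0.21 for Hoxd13, 2.11 ± 0.19 for Hoxd12, 1.36 ± 0.12 for Hoxd11, 0.70 ± 0.13 for Hoxd10 and -1.20 ± 0.16 for Hoxd9. Beyond Hoxd9 it had no such order: -0.37 ± 0.13 for Hoxd8, -0.23 ± 0.35 for Hoxd4, -1.02 ± 0.30 for Hoxd3 and -0.30 ± 0.56 for Hoxd1, with no call. The Hoxd9 call lay at the fold limit. It was lost without S9-Pαhi replicate 3, without S9-JAG1+ replicate 2 or 3, and with no filter on low counts. Without S9-JAG1+ replicate 2 Hoxd3 was called, at -1.23. Genes of the tail bud and posterior body axis, where posterior Hox genes are also active, summed to 13.0, 19.2 and 59.4 CPM in the S9-JAG1+ libraries and to 2.68 to 5.61 CPM elsewhere, and the library with 59.4 was also the highest in Hoxd13 and Evx2. T, which is also expressed in limb bud mesenchyme, gave 5.35, 10.4 and 23.8 CPM of these sums. Cdx2 gave 1.24, 1.68 and 3.81 CPM of them, against at most 0.113 CPM in any library of another population. Without the library with 59.4 CPM, S9-JAG1+ replicate 3, the log2 fold change was 3.61 for Hoxd13, which was still called, and 8.10 for Evx2. The S9-JAG1+ libraries kept, with 13.0 and 19.2 CPM, were also above the sums elsewhere, so this fit cannot take out a part of such cells. The part of tail bud cells in these values was not tested.

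In OCPs against S9-Pαhi LMPs, which share the PDGFRα-high gate and differ in SOX9, 0 genes were called higher (3.48% of tested genes) and 2 were called lower (1.36%): Hoxd13 by -1.49 ± 0.19 and Hoxd12 by -1.51 ± 0.19 on the log2 scale. Hoxd9 and Hoxd11 were also lower in OCPs (edgeR adjusted p = 0.0896 and 0.0718), but under the fold limit. No gene was higher at an adjusted p of at most 0.1.

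In OCPs against S9-JAG1+ LMPs, 1 gene was called higher (9.03% of tested genes) and 4 lower (3.46%). The log2 fold change was -5.29 ± 0.22 for Hoxd13, -3.62 ± 0.21 for Hoxd12, -1.71 ± 0.12 for Hoxd11 and -0.90 ± 0.13 for Hoxd10, and Evx2 was 279-fold lower from pooled reads (interval 160 to 541). Hoxd3 was the gene called higher, by 1.58 ± 0.30, and without OCP replicate 2 it was 1.02 and not called.

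In chondroblasts against OCPs, 3 genes were called higher (6.6% of tested genes) and 2 lower (1.16%). Hoxd12 was higher by 2.30 ± 0.20, Hoxd13 by 3.57 ± 0.21 and Evx2 by 7.76 ± 0.47 on the log2 scale, while Hoxd11 at 0.88 ± 0.12 stayed under the limit. Hoxd4 (-1.27 ± 0.35) and Hoxd1 (-1.82 ± 0.71) were called lower, and neither was called without OCP replicate 2, when Hoxd4 was -0.60 and Hoxd1 -1.63; Hoxd1 also lost its call without OCP replicate 3 or without chondroblast replicate 2 or 3.

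In chondroblasts against S9-JAG1+ LMPs, 0 genes were called higher (15.2% of tested genes) and 3 lower (4.17%): Hoxd13 (-1.72 ± 0.19), Hoxd12 (-1.32 ± 0.19) and Hoxd1 (-2.05 ± 0.69). Hoxd12 was not called without chondroblast replicate 1, nor Hoxd1 without S9-JAG1+ replicate 3 or when only these 2 populations were fitted. Evx2 per kilobase was 0.0720 ± 0.00960 of Hoxd13 in chondroblasts and 0.0262 ± 0.00655 in S9-JAG1+ LMPs (SD, n = 3). From the mean of the log2 ratios, it was 2.79-fold higher in chondroblasts, with no overlap and an exact two-sided permutation p of 0.1, the smallest that 3 against 3 libraries can give; it was picked with the values known. Against S9-Pαhi LMPs, chondroblasts had 2 genes called higher (10.8% of tested genes), Hoxd13 at 2.08 ± 0.19 and Evx2 at 8.12 ± 0.49, and 1 called lower (1.83%), Hoxd1 at -2.35 ± 0.68.

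**Figure D4:**
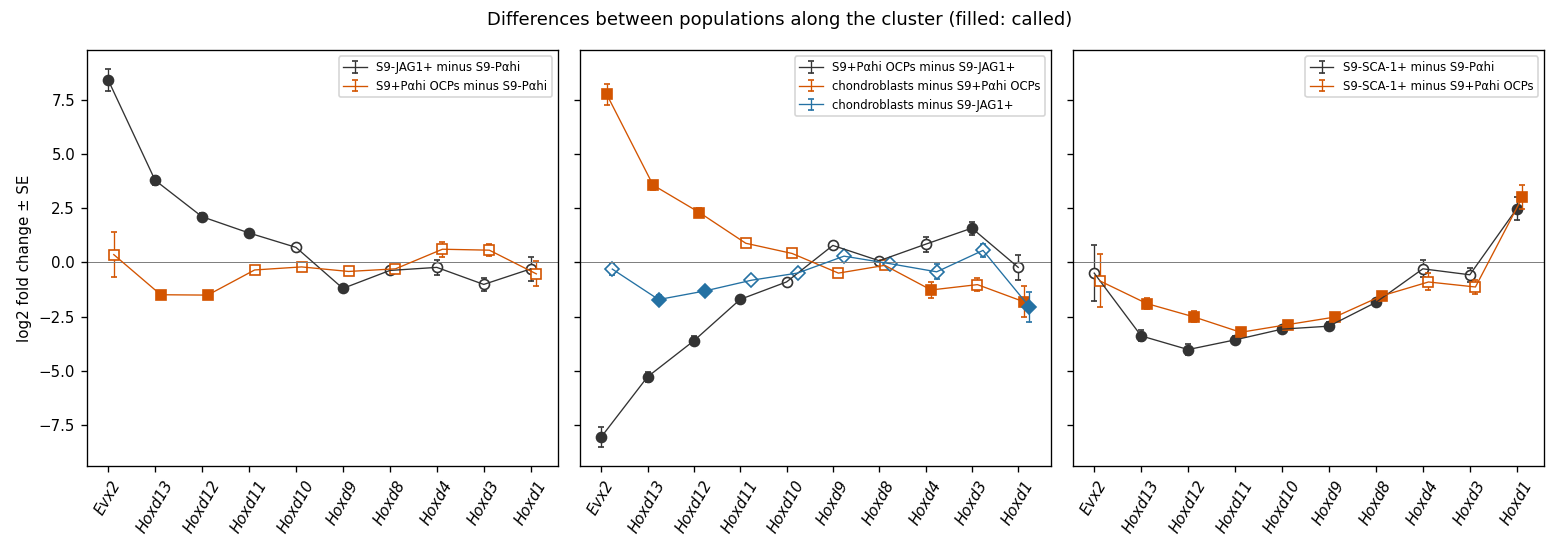
Log2 fold change (points) and SE (bars) of each gene in chromosomal order for 7 of the 10 comparisons; filled points were called and open points were not. S9-JAG1+ minus S9-Pαhi, OCPs minus S9-JAG1+ and chondroblasts minus OCPs differ most at Evx2 and next at Hoxd13, whereas S9-SCA-1+ cells are lower from Hoxd13 to Hoxd8 and higher at Hoxd1.

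S9-SCA-1+ cells had less RNA of the genes from Hoxd13 to Hoxd8 than every other population. Against S9-Pαhi LMPs 1 gene was called higher (4.96% of tested genes) and 6 lower (5.58%), against S9-JAG1+ LMPs 1 higher (6.53%) and 7 lower (4.91%), against OCPs 1 higher (4.73%) and 6 lower (8.03%), and against chondroblasts 1 higher (5.56%) and 7 lower (13.9%). These 4 comparisons share the same 2 S9-SCA-1+ libraries. The gene called higher was Hoxd1 in each, and the lower ones were Hoxd8 to Hoxd13, joined by Evx2 where the other population expressed it. Against S9-Pαhi LMPs the log2 fold change was -4.03 ± 0.26 for Hoxd12, -3.58 ± 0.16 for Hoxd11, -3.08 ± 0.17 for Hoxd10, -2.95 ± 0.20 for Hoxd9 and -1.85 ± 0.16 for Hoxd8. Hoxd13 averaged 6.79 CPM in S9-SCA-1+ cells and 71.6 CPM in S9-Pαhi LMPs. Its log2 fold change was -3.39 without S9-SCA-1+ replicate 2 and -3.40 without replicate 3. In both of these fits it fell less than Hoxd12 and Hoxd11, so the decrease did not grow steadily towards Hoxd13. Red blood cell genes summed to 122 and 3455 CPM in the 2 S9-SCA-1+ libraries, and their part in these values was not tested. Without either library, when the lone library left was assumed to vary like the other populations, no call against S9-Pαhi LMPs changed.

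Of 16 genes flanking the array, 1 was called higher and 0 lower in S9-JAG1+ against S9-Pαhi LMPs (2.58% and 4.42% of all tested genes), and 2 higher and 1 lower in chondroblasts against OCPs (6.6% and 1.16%). Lnpk, the gene beyond Evx2, averaged 96.2 CPM in S9-JAG1+ LMPs and 89.2 in chondroblasts against 47.4 to 55.8 elsewhere, with log2 fold changes of 0.79 ± 0.09 and 0.76 ± 0.09 in these comparisons, both under the fold limit (edgeR adjusted p = 3.19e-05 and 6.27e-05). Mtx2, beyond Hoxd1, differed by 0.05 ± 0.12 between the 2 kinds of LMP (adjusted p = 0.808). Of 6 genes at the distal HoxA end (Hoxa9, Hoxa10, Hoxa11, Hoxa13, Evx1 and the noncoding Hottip), 3 were called higher and 0 lower in S9-JAG1+ against S9-Pαhi LMPs. In chondroblasts against OCPs 4 were called higher and 0 lower, beside the same shares of all tested genes. Hoxa13, Evx1 and Hottip were called in both comparisons, and Hoxa11 in the second only. Hottip was at most 0.407 CPM in any library outside S9-JAG1+ LMPs and chondroblasts, so its calls, like those of Evx2, are no added support. Hoxa13, the HoxA partner of Hoxd13 in digit formation, averaged 119 CPM in S9-JAG1+ LMPs, 35.2 in chondroblasts, 4.03 in S9-Pαhi LMPs and 1.80 in S9-SCA-1+ cells, and was between 1.05 and 1.45 CPM in the OCP libraries. Evx1, at the end of the HoxA cluster, was at 75.1 CPM in S9-JAG1+ LMPs but 2.14 in chondroblasts, where Evx2 was high.

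Of 9 genes for Meis, Pbx and Pknox proteins, which bind DNA with Hox proteins, 0 were called higher and 5 lower in S9-JAG1+ against S9-Pαhi LMPs (2.58% and 4.42% of all tested genes). Meis1, a proximal limb gene, averaged 13.0 CPM in S9-JAG1+ LMPs, 79.3 in S9-Pαhi LMPs and 133 in OCPs. Shh, the signal of the posterior limb bud that posterior Hox proteins help to activate, had 54.2, 62.4 and 74.3 CPM in S9-JAG1+ and 19.0, 13.7 and 15.5 CPM in S9-Pαhi LMPs, and was at most 0.303 CPM in any OCP or chondroblast library. Of 20 Polycomb, 12 Trithorax and 10 chromatin architecture genes, 0 were called in S9-JAG1+ against S9-Pαhi LMPs, in OCPs against either LMP or in chondroblasts against OCPs, where 1.16% to 9.03% of all tested genes were called in a direction. In chondroblasts 2 of the 20 Polycomb genes were called higher against each kind of LMP, beside 15.2% (S9-JAG1+) and 10.8% (S9-Pαhi) of all tested genes.

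Across the 14 libraries, neighbouring genes followed each other to different degrees. Pearson's r of log2 CPM was 0.986 for Hoxd10 and Hoxd11, 0.956 for Hoxd11 and Hoxd12, 0.970 for Hoxd12 and Hoxd13, 0.881 for Hoxd13 and Evx2, 0.747 for Hoxd9 and Hoxd10, 0.943 for Hoxd8 and Hoxd9, 0.238 for Hoxd4 and Hoxd8, 0.807 for Hoxd3 and Hoxd4, and -0.02 for Hoxd1 and Hoxd3. These values describe 5 populations and not 14 independent conditions. Hoxd3 and Hoxd4 share annotated exon bases and were both highest in OCP replicate 2, which limits the reading of their r. Outside the array, among 11885 genes, the closest to Hoxd13 were Sall1 (r = 0.980), Mdga1 and Nrp2, and the closest to Hoxd12 was Nrp2 (0.988). Kif26a was closest to Hoxd11 (0.994), Hand2, which encodes a posterior limb bud factor, to Hoxd10 (0.987), Capn6 to Hoxd9 (0.971), and Tspan18 to Evx2 (0.988). By rank correlation at most 1 of the 3 closest genes was the same for any of the 10.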

How the data were processed

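Per the study's methods, single-end reads of poly(A)+ RNA were mapped to mm10 with STAR, keeping 1 hit per multi-mapping read. Reads starting within exons of RefSeq mRNAs were counted per gene, and the authors deposited these raw counts, which are the values used here. Whether strand was used is not given in the sources used here. Entrez identifiers were matched to symbols for 24374 of 24454 genes; the 80 others held 0.358% of counts. Genes passed edgeR's filterByExpr (minimum count 10), and all 14 libraries were fitted with edgeR 4.0.16 (R 4.3.3, TMM scaling, quasi-likelihood test, Benjamini-Hochberg adjustment over 15125 genes). The fit was tested on simulated data. CPM used TMM-scaled totals, and division by counted exon length allowed comparison between genes. All 10 genes were to be named. Replicates were the labelled libraries, which the study calls biological replicates. The members and gene lists were chosen with earlier results of these data known. Alternatives included DESeq2 1.42.0.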

Additional observations from a re-analysis of the deposited data

How the results depend on the processing

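The number of genes of the array called in a comparison stayed within 1.5 times the reported number in 119 of 126 recounts, and 7 moved. No log2 fold change with an adjusted p of at most 0.1 reversed its sign. At the reported limits, 15 calls were lost and 7 gained over the other settings, 2 of the lost ones because Hoxd1 did not pass the filter when only the 2 populations were fitted. Without a limit on fold change, the number called was 8 rather than 5 in S9-JAG1+ against S9-Pαhi LMPs. In OCPs it was 4 rather than 2 against S9-Pαhi LMPs and 8 rather than 5 against S9-JAG1+ LMPs. In chondroblasts it was 9 rather than 5 against OCPs, 5 rather than 3 against S9-JAG1+ LMPs and 7 rather than 3 against S9-Pαhi LMPs. In S9-SCA-1+ cells it was 9 rather than 7 against OCPs and unchanged against the other populations. The share of all tested genes that passes without this limit is not given here, so these counts cannot be set against it. Leaving out each library in turn gave 4 to 5 in S9-JAG1+ against S9-Pαhi LMPs, 4 to 5 in OCPs against S9-JAG1+ LMPs, 3 to 6 in chondroblasts against OCPs (3 without OCP replicate 2), 2 to 3 in chondroblasts against S9-JAG1+ LMPs and 7 to 9 in S9-SCA-1+ cells against OCPs; the other 5 comparisons kept 2, 3, 7, 8 and 8. Deviations from the population means correlated from -0.25 to 0.52 between same-numbered libraries of different populations (7 of 26 pairs above 0.1). Between libraries of unlike number they correlated from -0.50 to 0.60 (8 of 52 pairs above 0.1). The highest values were those of OCP replicate 1 with S9-Pαhi replicate 3 (0.60) and with S9-JAG1+ replicate 1 (0.52). The latter 2 correlated at 0.39, and these 3 libraries were the highest in Pitx1 of their populations. OCP replicate 2 correlated at 0.44 with S9-Pαhi replicate 2 and at 0.43 with S9-JAG1+ replicate 2. Whether libraries of different populations came from shared pools was not tested, and the reported fit used no pairing. With the replicate number as a block, 4 rather than 5 genes were called in chondroblasts against OCPs. The number was unchanged in the other comparisons, but this block cannot cover pairing across unlike numbers. Fewer than 6 reads of Evx2 per library limit its level in 3 populations. Shares from reads without division by exon length moved by more than the replicate SD for 25 of 50 values.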
